A study of Mus musculus and Homo sapiens with 10 samples.

Results

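The genes described here encode receptors and ligands that steer growing axons: Robo1, Robo2 and Robo3, Slit1, Slit2 and Slit3, Dcc, Unc5b, Unc5c and Unc5d. They were taken by name as 10 of 21523 protein-coding genes on mouse chromosomes 1 to 19 and X. Slit proteins are secreted and repel axons that carry Robo receptors, for example at the midline of the nervous system. Netrins attract axons through the receptor Dcc and repel them through receptors of the Unc5 family. Robo3 differs in role, as commissural axons need it to cross the midline.

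In DamID, a chromatin protein carries the bacterial enzyme Dam, and the adenine methylation that Dam leaves on nearby GATC sites records where the protein has been. The series held 10 samples. In N2A cells, a mouse neuroblastoma line, LaminB1-Dam was read by Nanopore in 1 sample and by Illumina in 2 samples, with Dam alone in 1 sample for each method. N2A cells also had 1 sample each labelled Wildtype and 10% LaminB1-Dam. The other 3 samples were human HEK293T cells with CTCF-DamN126A or DamN126A, which were not used. Expression of the fusion proteins was induced with 2 µg/mL doxycycline. Lamina-associated domains (LADs) are stretches of chromatin at the nuclear lamina, and genes inside them are often silent. Each method had a single consensus list of LADs without values per sample, so sequencing depth was unknown, no spread between replicates could be computed, and no difference below was tested. LAD borders lay on a grid of 20 kb, and a shift of less than a grid step cannot be seen.

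The 10 genes fell into 3 kinds. Robo1, Robo2, Dcc and Unc5d lay wholly inside LADs of both lists. Robo3, Slit1, Unc5b and Unc5c touched no LAD of either list. Slit2 and Slit3 were cut by LAD borders, and they were the genes on which the lists differed. By the rule of at least 50% of the gene body, 4 of 10 genes counted as inside by Nanopore and the same 4 by Illumina. Among all protein-coding genes the shares were 28.9% by Nanopore and 25.4% by Illumina. The median share of the body was 19.1% by Nanopore and 16.9% by Illumina over the 10 genes, and 0% with each list over all protein-coding genes. The medians of the 10 fell between the shares of Slit2 and Slit3, as the other genes were at 0% or 100%. Over all genes of 300 kb to 1 Mb, a class with 4 of the 10, the medians were 94.6% and 85.6%. Over genes of 1 Mb or more, with 3 of the 10, they were 100% and 99.7%. Whole inclusion in both lists held for 4 of 10 genes, against 22.8% of all genes, and freedom from both lists held for 4 of 10, against 68.8%.

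**Figure D1:**
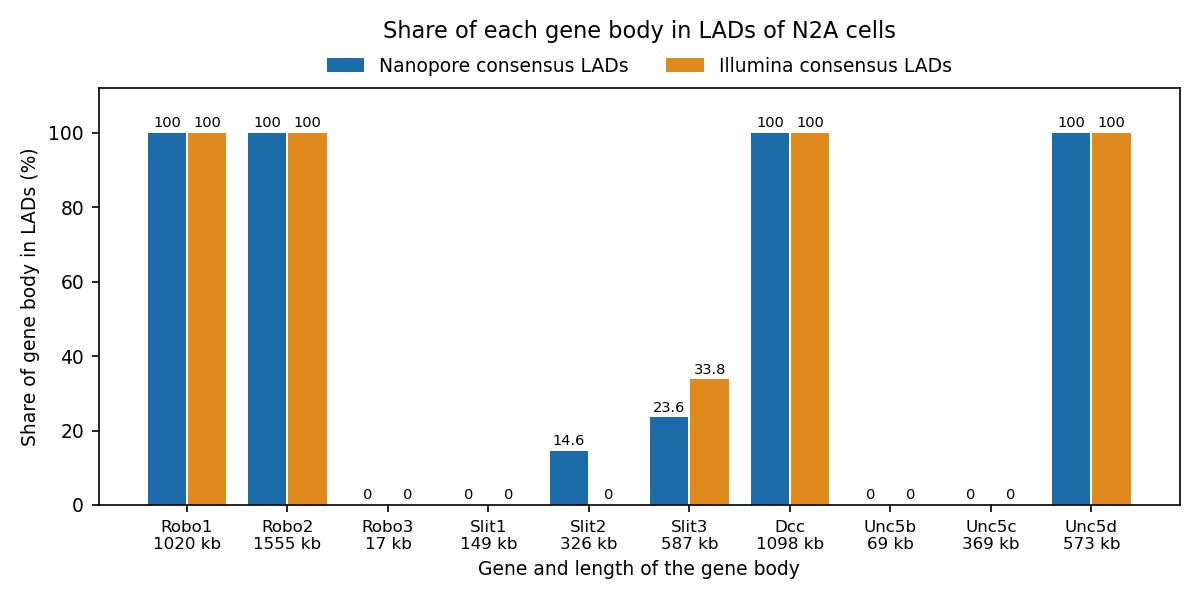
Share of each gene body (percent of bases, y axis) in consensus LADs of N2A cells by Nanopore (blue, left) and Illumina (orange, right), with the length of the gene under its name. Bars stand at 100% in both lists for Robo1, Robo2, Dcc and Unc5d, at 14.6% and 0% for Slit2, and at 23.6% and 33.8% for Slit3.

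The receptors Robo1 and Robo2 bind Slit proteins and lie next to each other on chromosome 16. Robo1 spans 72027518 to 73047491 and Robo2 spans 73891976 to 75447443 (mm10), and both were covered at 100% by Nanopore and at 100% by Illumina. Their LAD was the widest of each list, 19.9 Mb among 1174 Nanopore LADs and 19.56 Mb among 1149 Illumina LADs on these chromosomes. It began at 64900001 in both lists and ended at 84800000 by Nanopore and at 84460000 by Illumina. Neither gene came near a border. The start of Robo1 lay 7.13 Mb inside with each list, and the start of Robo2 lay 9.35 Mb inside by Nanopore and 9.01 Mb by Illumina. The 844 kb between the genes was LAD too, and the nearest protein-coding genes outside the pair, Gbe1 (glycogen branching enzyme) and Lipi (a lipase), were covered at 100% by both lists. The LAD held 23 protein-coding genes by Nanopore and 22 by Illumina.

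Robo3 had the opposite position. This short gene of 17.4 kb (chromosome 9, 37416045 to 37433436) was covered at 0% by Nanopore and at 0% by Illumina. It sat in a region between LADs of 540 kb by Nanopore (37140001 to 37680000) and 560 kb by Illumina (37140001 to 37700000), with 14 protein-coding genes in it by either list. The nearest LAD base was 247 kb away by Nanopore and 267 kb away by Illumina. Robo4, a family member known from blood vessels, ends 2.02 kb before Robo3 and was also at 0% in both lists. Of the 4 Robo genes, the pair on chromosome 16 was thus wholly inside LADs and the pair on chromosome 9 wholly outside.

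Among the netrin receptors, Dcc (chromosome 18, 71253613 to 72351228) was covered at 100% by Nanopore and at 100% by Illumina. Its LAD began at 70660001 in both lists and ended at 73560000 by Nanopore and 73540000 by Illumina, so it was 2.9 and 2.88 Mb wide. No other protein-coding gene lay wholly in it with either list. Dcc filled 37.8% of the LAD by Nanopore and 38.1% by Illumina. The genes on both sides, Mbd2, which encodes a reader of methylated DNA, and Mex3c, which encodes an RNA-binding protein, were at 0% in both lists. Mex3c starts at 73572637, within a grid step of the Nanopore border, and the LAD lay wholly between these neighbours.

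The Unc5 receptors among the 10 genes were split. Unc5a, a family member not among the 10, was at 0% in both lists. Unc5d (chromosome 8, 28646717 to 29219671) was covered at 100% by both lists, in a LAD of 3.74 Mb by Nanopore and 3.76 Mb by Illumina. That LAD also held Tex24, Poteg and the nicotinic acetylcholine receptor genes Chrnb3 and Chrna6. The ends of Unc5d lay 1.33 and 1.84 Mb from the nearest border by Nanopore, and 1.35 and 1.84 Mb by Illumina. Unc5b, a family member known from blood vessels as well as neurons, had the most open surroundings of the 10 genes. It is 69.0 kb long (chromosome 10, 60762594 to 60831581) and was at 0% in both lists. No LAD base of either list lay within 1 Mb of its ends. The region between LADs was 2840 kb by Nanopore and 2820 kb by Illumina, and it held 35 protein-coding genes with each list.

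**Figure D2:**
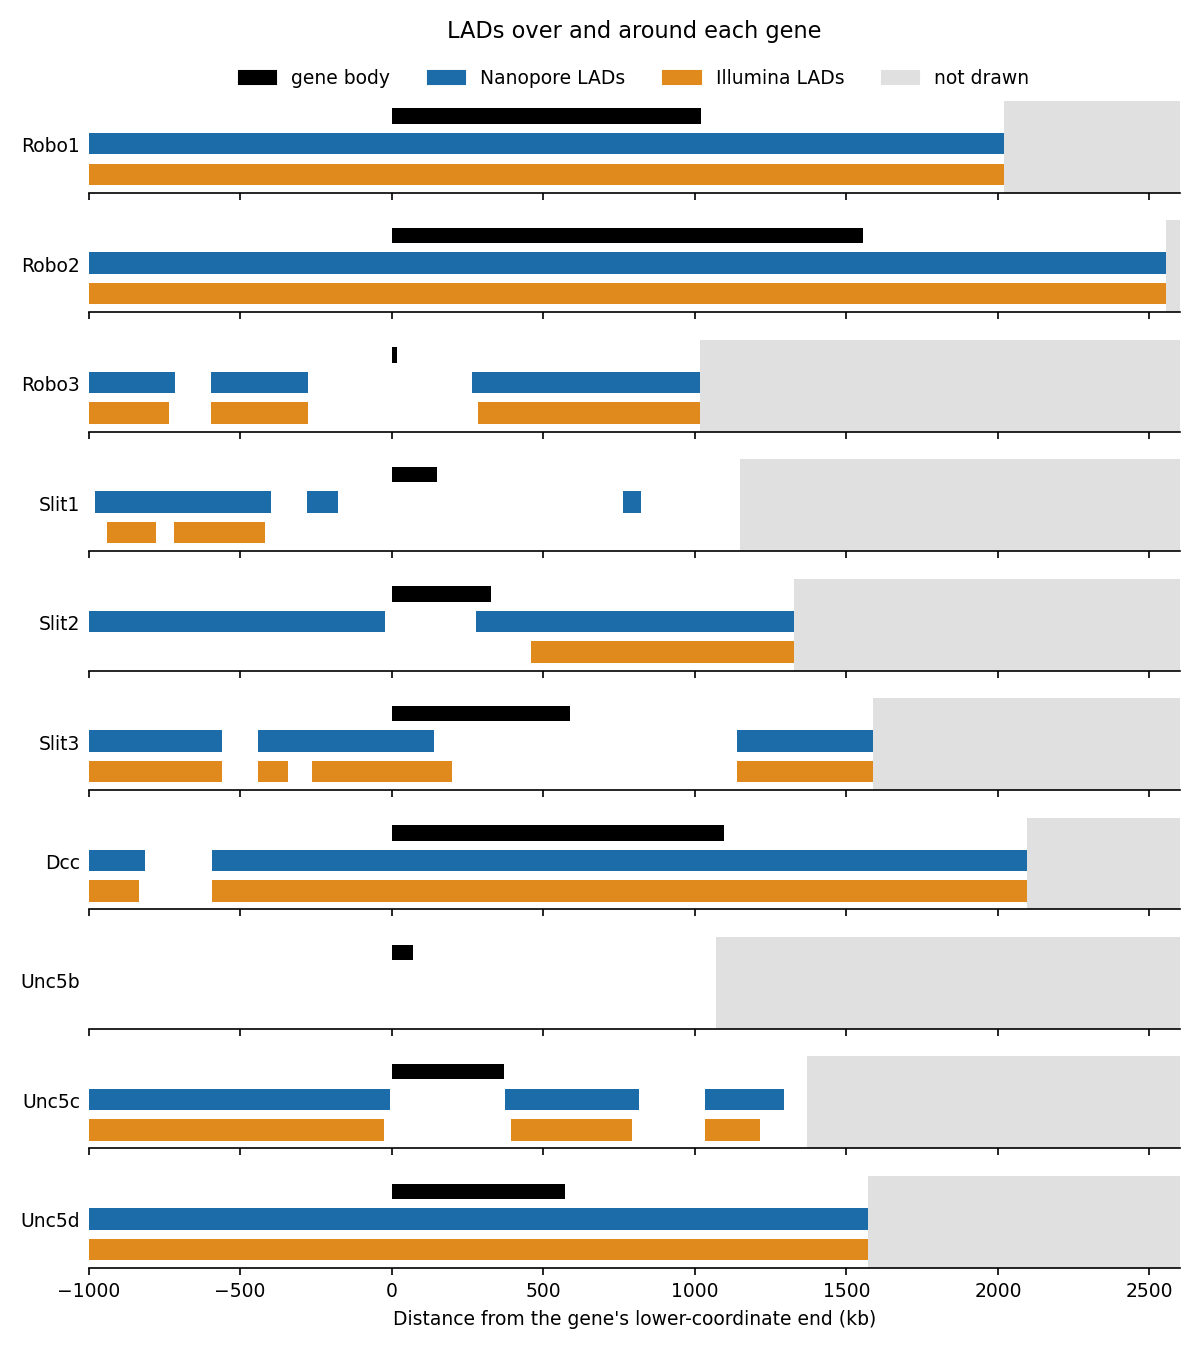
Gene bodies (black) with Nanopore LADs (blue) above Illumina LADs (orange), from 1000 kb before to 1000 kb beyond each gene; the x axis is the distance from the gene's lower-coordinate end in kb and grey marks what was not drawn. LADs run unbroken over Robo1, Robo2, Dcc and Unc5d, no LAD is drawn around Unc5b, and gaps in the LADs sit over Unc5c and most of Slit2.

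Unc5c, a repulsive netrin receptor known from mouse mutants with a malformed cerebellum, was free of LADs although LADs flanked it closely. It spans 141465564 to 141834924 on chromosome 3 and was at 0% in both lists. The gap between LADs was 380 kb wide by Nanopore (141460001 to 141840000) and 420 kb wide by Illumina (141440001 to 141860000). Unc5c was the only protein-coding gene wholly in that gap and filled 97.2% of it by Nanopore and 87.9% by Illumina. The start of the gene lay 5.56 kb from the LAD before it by Nanopore and 25.6 kb by Illumina. Its finish lay 5.08 kb from the LAD after it by Nanopore and 25.1 kb by Illumina. The Nanopore distances are below a grid step, so which side of the border the gene ends lie on is not resolved, and with LADs widened by a grid step Unc5c was at 7.95% by Nanopore and 0% by Illumina. The LAD before it was 2900 kb wide by Nanopore and 2880 kb by Illumina. Bmpr1b, a BMP receptor gene that begins 2.21 kb beyond Unc5c, was covered at 99.1% by Nanopore and 93.1% by Illumina, and Pdha2, a testis form of a pyruvate dehydrogenase subunit on the other side, was at 100% in both.

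A count of similar genes was chosen after the position of Unc5c was seen. Among 2425 protein-coding genes of 100 kb or more, 9 (0.371%) touched no LAD and had a LAD of each list within 40 kb of both ends. Unc5c was the longest of the 9, at 369 kb. Ext1, which encodes an enzyme of heparan sulfate synthesis, followed at 277923 bp, and Lcorl, the nearest protein-coding gene before Slit2, was also among them. No test of these positions was made.

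None of the Slit genes, which encode the ligands, was mostly inside LADs. The same held for the receptor genes Robo3, Unc5b and Unc5c and for 70.4% of all protein-coding genes. Slit1 (chromosome 19, 41597824 to 41747275) was at 0% in both lists. The nearest LAD base lay 178 kb from its lower-coordinate end by Nanopore and 418 kb by Illumina. The region between LADs was wider by Illumina, 1620 kb, than by Nanopore, 940 kb. The LADs that bounded the Nanopore region were 100 and 60 kb wide. Its neighbours Lcor, which encodes a nuclear receptor corepressor, and Arhgap19, which encodes a GTPase-activating protein, were at 0% in both lists.

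Slit2 (chromosome 5, 47981291 to 48307735) was covered at 14.6% by Nanopore and at 0% by Illumina. Its start lay outside LADs of both lists, 21.3 kb beyond the end of a Nanopore LAD that ran from 45880001 to 47960000. The next Nanopore LAD began at 48260001 inside the gene and took in its last 47.7 kb. With LADs narrowed or widened by a grid step at each border, the Nanopore share was 8.50% or 20.7%. The remaining 279 kb of Slit2 filled 92.9% of the region between these LADs. By Illumina the surroundings were wider. The gap ran from 46340001 to 48440000, 2100 kb, and the nearest LAD began 132 kb beyond the finish of Slit2. In the 1000 kb before Slit2, LADs took up 97.9% of bases by Nanopore and 0% by Illumina. In the 1000 kb beyond the gene the shares were 100% by Nanopore and 86.8% by Illumina. Pacrgl, the next gene, was covered at 100% by Nanopore and at 0% by Illumina.

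Slit3 (chromosome 11, 35121456 to 35708507) was the only one of the 10 genes with a larger share by Illumina, 23.6% by Nanopore and 33.8% by Illumina. Its start was inside LADs of both lists and its finish outside both, the reverse of Slit2 by Nanopore. The LAD over its start ended at 35260000 by Nanopore and at 35320000 by Illumina, a difference of 60 kb, or 3 grid steps. The rest of the gene, 449 kb by Nanopore and 389 kb by Illumina, lay in a region between LADs that reached to 36260000 in both lists. In front of Slit3 the Nanopore LAD was unbroken from 34680001. The Illumina list had a gap there of 80 kb (34780001 to 34860000) that held Spdl1, a gene for a mitotic spindle protein, at 100% by Nanopore and 0% by Illumina.

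**Figure D3:**
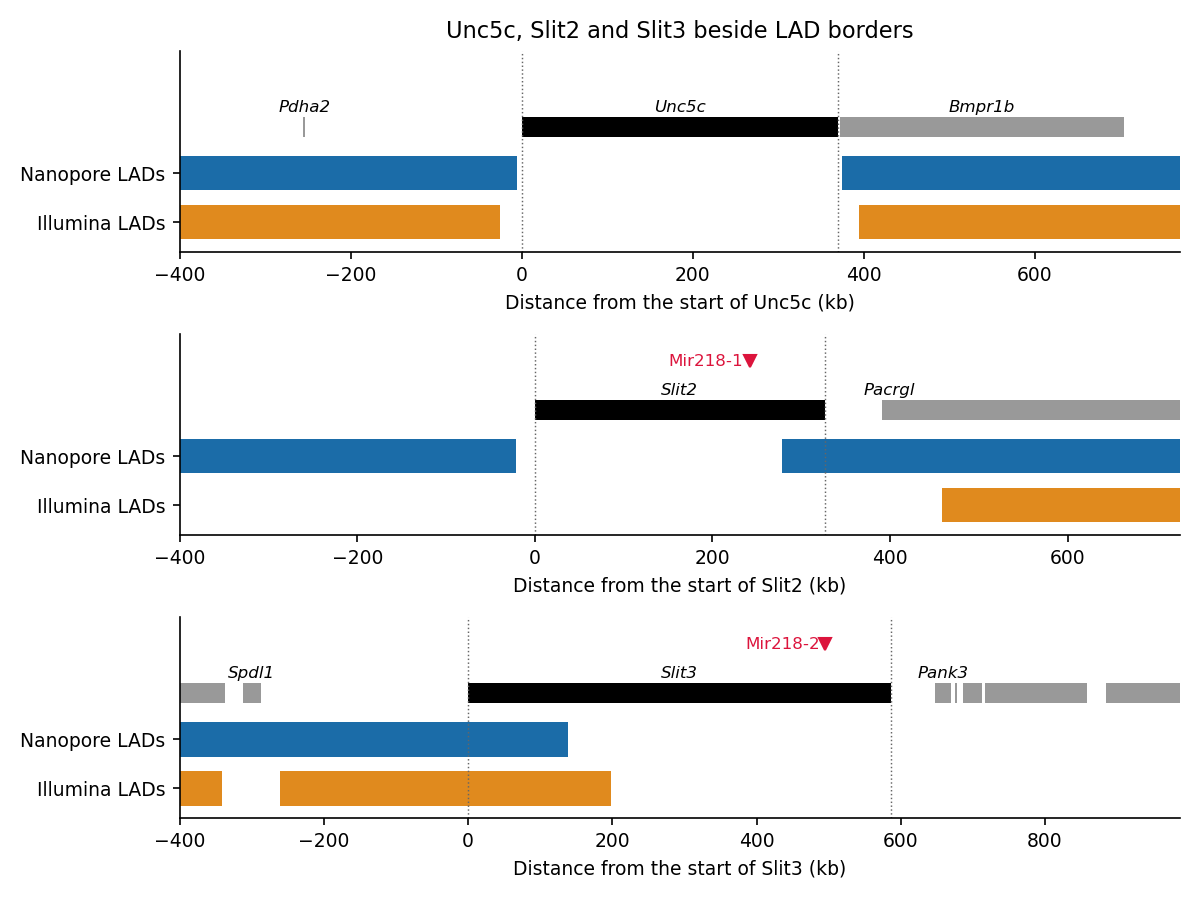
LADs by Nanopore (blue) and Illumina (orange) around Unc5c, Slit2 and Slit3 (black) with other protein-coding genes (grey) and microRNA genes (red triangles); the x axis is the distance from the start of each gene in kb and dotted lines mark the gene ends. The Unc5c gap reaches 5.56 and 5.08 kb beyond the gene ends by Nanopore, below the grid step of 20 kb, and 25.6 and 25.1 kb by Illumina. A Nanopore LAD takes in the last 47.7 kb of Slit2, and LADs of both lists cover the start of Slit3.

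Larger Nanopore than Illumina shares occurred in 1 of 10 genes, against 6.25% of all protein-coding genes and 15.8% of those of 100 kb or more. The reverse occurred in 1 of 10, against 1.26% of all genes and 3.51% of those of 100 kb or more. The share was the same in 8 of 10 genes and in 92.5% of all genes. Over the summed length of the 10 genes, 5765 kb, both lists gave the same call for 98.1% of bases, with 47.7 kb in Nanopore LADs only, all in Slit2, and 60 kb in Illumina LADs only, all in Slit3.

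Among genes of 100 kb or more, Mgll had a pair of shares over the 2 lists close to that of Slit2 (15.0% by Nanopore and 0% by Illumina, at a Euclidean distance of 0.374 percentage points). Chst9 was among the genes nearest to Slit3 (22.1% by Nanopore and 28.6% by Illumina, at 5.42 points). These are likenesses of a single pair of numbers.

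The gene ends followed the bodies except in Slit2 and Slit3. The start was in LADs for 5 of 10 genes with each list, Robo1, Robo2, Slit3, Dcc and Unc5d, against 28.6% of all protein-coding genes by Nanopore and 25.1% by Illumina. The finish was in LADs for 5 genes by Nanopore and 4 by Illumina, with Slit2 as the difference, against 28.5% and 24.9% of all genes. The strand of Slit1, Dcc and Unc5d was not used here, so their lower-coordinate end was taken as the start. Both ends of each had the same call, so this choice does not alter the counts of members. Every other gene without a single listed strand was treated in the same way. The effect on the shares over all genes was not examined.

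Promoter sequences from RefSeq (GRCm38.p6, the assembly behind mm10) were matched for 7 of the 10 genes, 9 promoters in all, each from 250 bases before to 50 after an annotated start. They are shown for a gene deep inside a LAD (Robo1), a gene whose start was in LADs of both lists while most of it was not (Slit3), a gene whose start lay within 25.6 kb of a LAD in both lists (Unc5c) and a gene whose start lay 21.3 kb from a LAD by Nanopore and 459 kb by Illumina (Slit2). These distances are from the start of the gene model. The listed start of the Slit2 promoter, 47983155, lies inside that model, so its own distances differ somewhat. Capitals mark GATC, the site that Dam methylates, which reads the same on both strands.
Robo1 (chr16:72662899-72663198, plus strand): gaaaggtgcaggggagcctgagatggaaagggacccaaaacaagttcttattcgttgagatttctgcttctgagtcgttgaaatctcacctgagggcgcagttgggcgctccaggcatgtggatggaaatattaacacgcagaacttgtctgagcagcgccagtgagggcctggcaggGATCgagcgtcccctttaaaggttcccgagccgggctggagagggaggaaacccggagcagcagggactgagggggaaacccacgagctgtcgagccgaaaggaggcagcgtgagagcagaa
Slit3 (chr11:35121206-35121505, plus strand): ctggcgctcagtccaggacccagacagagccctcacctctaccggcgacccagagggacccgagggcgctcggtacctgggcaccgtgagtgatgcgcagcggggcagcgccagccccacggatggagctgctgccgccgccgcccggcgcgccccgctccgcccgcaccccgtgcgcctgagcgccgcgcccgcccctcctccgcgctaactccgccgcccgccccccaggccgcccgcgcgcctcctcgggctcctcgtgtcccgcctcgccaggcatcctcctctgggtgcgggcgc
Unc5c (chr3:141465314-141465613, plus strand): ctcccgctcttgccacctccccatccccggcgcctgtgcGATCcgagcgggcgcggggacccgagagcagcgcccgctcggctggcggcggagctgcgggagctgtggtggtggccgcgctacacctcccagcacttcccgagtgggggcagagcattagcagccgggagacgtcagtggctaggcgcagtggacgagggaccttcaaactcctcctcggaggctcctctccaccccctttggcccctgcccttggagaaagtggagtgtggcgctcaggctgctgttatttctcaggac
Slit2 (chr5:47982905-47983204, plus strand): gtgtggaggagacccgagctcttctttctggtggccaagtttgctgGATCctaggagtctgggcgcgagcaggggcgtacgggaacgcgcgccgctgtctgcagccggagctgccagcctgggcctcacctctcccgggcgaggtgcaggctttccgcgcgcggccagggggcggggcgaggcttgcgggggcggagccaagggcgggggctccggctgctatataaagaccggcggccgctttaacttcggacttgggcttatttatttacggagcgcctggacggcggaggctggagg

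A GATC was found in 8 of the 9 promoters, which came from 7 genes, against 46.2% of 21045 promoters of protein-coding genes. Robo2 gave 3 of the 9, all with a site, and promoters of the same gene are not independent. Slit3 was the exception with 0 sites. Robo1, Robo3, Slit2 and Unc5c had 1 site each, Unc5b had 2, and the 3 promoters of Robo2 had 1 or 2. LAD borders lay on a grid of 20 kb, far wider than these 300 bases, and this count is a description only. The listed start of Robo1, 72663149, lay within the gene model, and all 3 listed starts of Robo2 were in the same LAD, so no annotated start of either gene reached a border.

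GC content varied among the promoters inside LADs. The Slit3 promoter had 78.3% GC and 41 CpG dinucleotides. Among 4808 promoters with a start in LADs of both lists, 62 (1.29%) had as high a GC share and 98 (2.04%) as many CpGs. The Robo1 promoter had 57.0% GC and 15 CpGs, and the Robo2 promoters had 45.0%, 53.3% and 65.0% GC with 5, 9 and 17 CpGs. The median over those 4808 promoters was 45.7% GC with 3 CpGs. Members with a start outside LADs had 63.3% GC in Robo3, 68.0% in Slit2, 68.3% in Unc5c and 69.7% in Unc5b. The median over 15238 promoters with a start in neither list was 59.3% GC with 18 CpGs. With 3 genes against 4 matched, no difference between them was tested.

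Slit2 and Slit3 are host genes of the microRNA genes Mir218-1 and Mir218-2, which give the same 5p product, known to target Robo1. Robo2 holds Mir691. These were the microRNA genes listed in the 10 gene bodies, an item chosen after the positions were seen. The mature sequences are shown because they let both copies of miR-218 be compared, with the seed (bases 2 to 8) in capitals.
miR-218-5p, from both Slit2 and Slit3: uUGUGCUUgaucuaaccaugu
miR-218-1-3p, from Slit2: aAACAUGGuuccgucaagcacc
miR-218-2-3p, from Slit3: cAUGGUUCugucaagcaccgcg
miR-691, from Robo2: aUUCCUGAagagaggcagaaaa

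Both copies lay outside LADs of both lists, although LADs reached into Slit3 in both lists and into Slit2 by Nanopore. Mir218-1 (chromosome 5, 48223942 to 48224051) was 36.1 kb from the nearest LAD border by Nanopore and 216 kb by Illumina. Mir218-2 (chromosome 11, 35616816 to 35616925) was 357 kb away by Nanopore and 297 kb by Illumina. Mir691 (chromosome 16, 74341990 to 74342067) was inside the LAD of Robo2 in both lists, 9442 kb from its nearest border. The 5p products share the seed UGUGCUU, while the 3p products of the 2 copies have the seeds AACAUGG and AUGGUUC, and miR-691 has UUCCUGA. The 3p products share most of their sequence but begin at different points of it, so their seeds are offset and overlap.

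Gene length went with LAD share among all genes and, in part, among the 10. Of protein-coding genes under 100 kb, 27.3% were mostly in LADs by Nanopore and 24.1% by Illumina. Of the 2425 genes of 100 kb or more, 41.2% were by Nanopore and 36.0% by Illumina, beside 4 of 8 members of that length with each list. The shares were 34.2% and 29.0% for 100 to 300 kb, 62.2% and 57.4% for 300 kb to 1 Mb, and 86.4% and 78.0% for 1 Mb or more. Robo2, Dcc and Robo1, at 1555, 1098 and 1020 kb, were all wholly in LADs of both lists, as were 45.8% of the 59 genes of 1 Mb or more. From 300 kb to 1 Mb only Unc5d was, 1 of 4 members, against 39.2% of the 498 genes of that length. Slit3 (587 kb) and Unc5d (573 kb) are nearly equal in length, with 23.6% and 100% of the body in Nanopore LADs and 33.8% and 100% in Illumina LADs. Unc5c was among the 29.3% of genes from 300 kb to 1 Mb that touched neither list. Slit1, Unc5b and Robo3, at 149, 69.0 and 17.4 kb, were outside. The length classes hold too few members for a statement about the set.

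**Figure D4:**
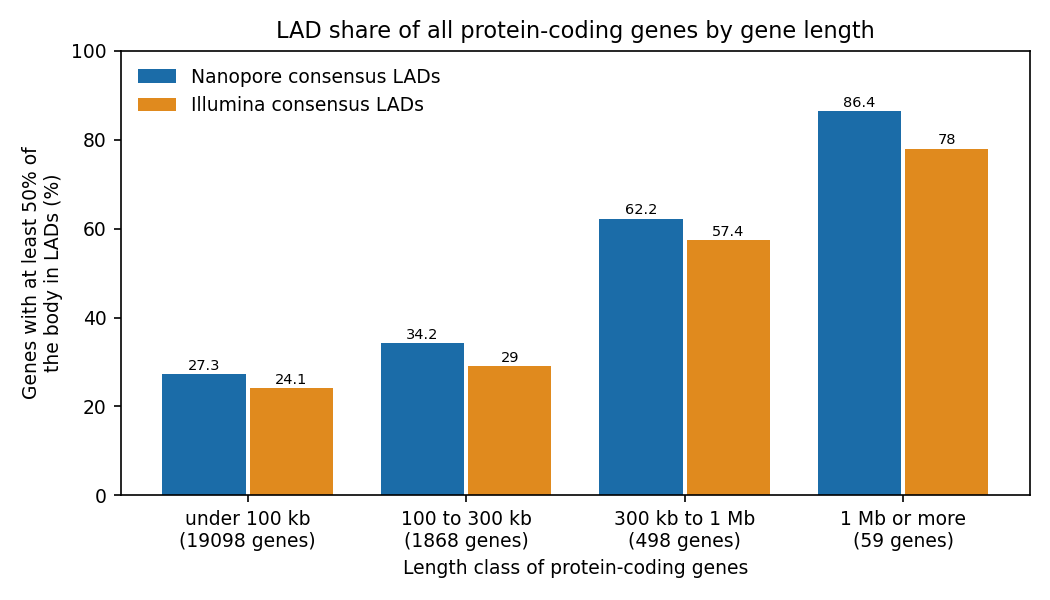
Percent of protein-coding genes with at least 50% of the body in LADs (y axis) by length class (x axis, number of genes in brackets), by Nanopore (blue, left) and Illumina (orange, right). The share goes up from 27.3% and 24.1% under 100 kb to 86.4% and 78.0% at 1 Mb or more.

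The nearest protein-coding genes on both sides of the 4 genes inside LADs were mostly in LADs of both lists in 5 of 8 cases, counting Robo1 and Robo2 as each other's neighbour, and in neither list in 3. Over all protein-coding genes 24.7% were mostly in LADs of both lists and 70.4% in LADs of neither. Of the 12 neighbours of the other 6 genes, 8 were in neither list, 2 were in both (Pdha2 and Bmpr1b, beside Unc5c) and 2 were in Nanopore LADs only (Pacrgl beside Slit2 and Spdl1 beside Slit3). The count of 8 of 12 is near the share over all genes, and neighbours can share a LAD and are not independent.

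Other genes listed for these pathways lay outside LADs for the most part. Of 18 further genes listed as ligands and receptors, 4 were mostly in LADs with each list. What each listed gene product binds was not examined here. The names of Unc5cl and Ntng1 do not show that their products take part in Slit or netrin signalling. The same 4 genes counted in both lists: Flrt3, Rgmb and Unc5cl at 100% in both, and Ntng1 at 100% by Nanopore and 75.7% by Illumina. Flrt3 encodes a membrane protein that binds Unc5 and Robo receptors, Rgmb a ligand of the netrin receptor neogenin, and Ntng1 the membrane-bound netrin G1. The netrin genes Ntn1, Ntn3, Ntn4 and Ntn5 were at 0% in both lists. So were the receptor genes Neo1, Dscam, Dscaml1 and Unc5a, the Dcc ligand gene Draxin, the netrin G2 gene Ntng2, the neogenin ligand gene Rgma, Robo4 and the heparan sulfate proteoglycan genes Gpc1 and Sdc1. Dscam reached 0% in spite of its 584 kb. Genes of ligands and genes of receptors were thus both among those at 0%, and 70.4% of all protein-coding genes were under 50% in each list. The 4 of 18 genes mostly in LADs are 22.2% with each list, near the 28.9% by Nanopore and 25.4% by Illumina among all genes.

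Of 22 genes that act inside the cell downstream of these receptors, 3 (13.6%) were mostly in LADs with each list. For this and the lists below, the shares over all protein-coding genes were 28.9% by Nanopore and 25.4% by Illumina. Srgap1, a GTPase-activating protein that binds Robo1, and Dock1, an activator of Rac, were at 100% in both lists. Myo10, a filopodial motor that carries Dcc, was at 61.5% by Nanopore and 71.9% by Illumina. Abl1, Ablim1, Arhgap39 and Cdc42 were among the 19 outside. Semaphorin genes, another family of guidance cues, had 5 of 20 members mostly in LADs with each list, 25%. Among them were Sema3a, Sema3c, Sema3d and Sema3e, all at 100%. These named genes lie on chromosome 5 between 12383161 and 17730268 and are not independent cases. Plexin and neuropilin genes, which encode semaphorin receptors, had 1 of 11 (9.09%), Plxna2 at 100% in both lists. No ephrin gene of 8 was mostly in LADs of either list, and Efnb2 had 0% by Nanopore and 6.29% by Illumina. Every list had a median share of 0% with each method, as did all protein-coding genes. The lists differ in gene length. Among genes of 100 kb or more, 5 of 9 semaphorin genes were mostly in LADs with each list, beside 4 of 8 members. Over all protein-coding genes of that length the shares were 41.2% by Nanopore and 36.0% by Illumina. These counts are small, and no difference from those shares was tested. The counts at that length were 3 of 14 for genes acting inside the cell and 1 of 6 for further ligands and receptors. They were 1 of 5 for plexin and neuropilin genes and 0 of 1 for ephrin genes.

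**Figure D5:**
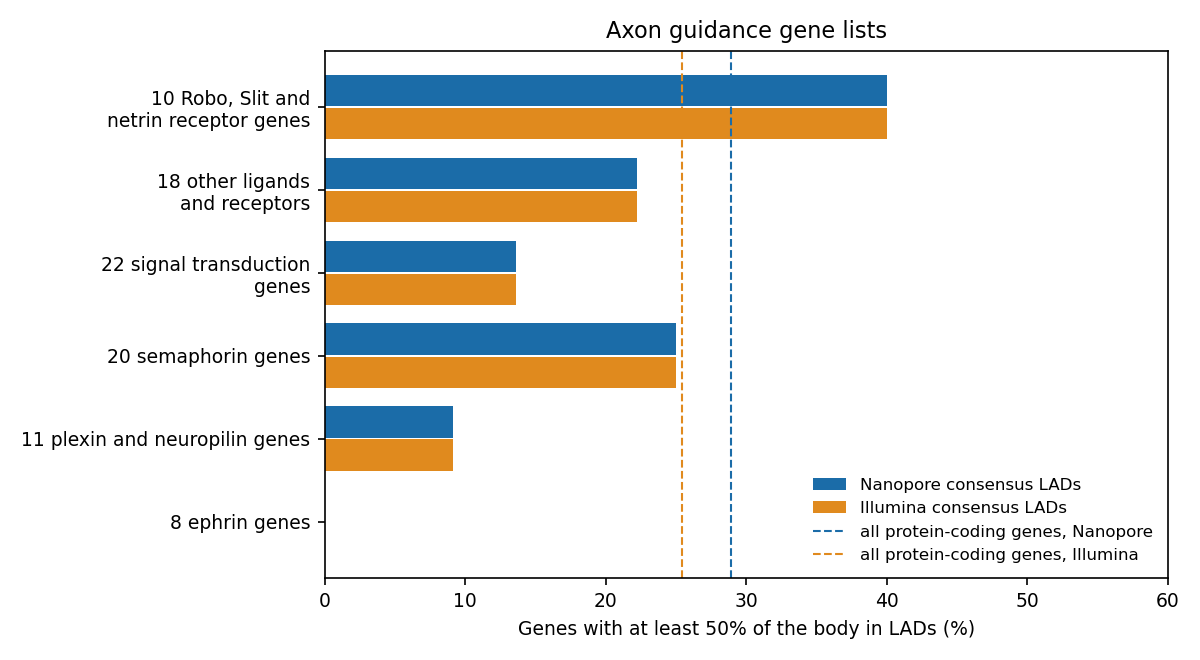
Percent of genes with at least 50% of the body in LADs (x axis) for the 10 genes and 5 further lists (y axis), by Nanopore (blue, above) and Illumina (orange, below); dashed lines give all protein-coding genes, 28.9% by Nanopore and 25.4% by Illumina. The 10 genes stand at 40% with each list and the other lists between 0% and 25%, with no account taken of gene length, which differs between the lists.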

How the data were processed

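The values used were 2 lists of consensus LADs that the authors deposited for N2A cells, 1210 intervals by Nanopore and 1190 by Illumina, with coordinates and no score or count. Per the submitters' processing notes, tools included minimap2, deepTools, SAMtools and bedtools, and mm10 was a build. Caller, thresholds and the samples behind each list are not given in these sources, so depth and replicate error are unknown. Scaffold names belong to mm10. Human CTCF peaks were not used.

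Gene positions came from RefSeq (GRCm38.p6) and strand from its promoter table. Genes starting below 3 Mb were left out. For each gene the percent of bases in LADs and the call of both ends were computed, and 50% or more counted as mostly in LADs. Named genes are the members, their nearest protein-coding neighbours, the further ligands and receptors, up to 4 genes per class in alphabetical order of each other list, and genes nearest in their pair of shares, of which some are not reported here. Efnb2, Ext1, Lcorl as an example of a gap gene, the microRNAs and genes named as sharing a LAD were chosen after their values were seen. The members and lists were chosen with earlier results of these data known. Alternatives changed borders, small LADs, gaps, the required share and the window at gene ends. Overlap code was tested on simulated data. Tools were Python 3.11.15 with matplotlib 3.10.9, scipy 1.17.1, pandas 2.3.3 and numpy 2.4.6.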

Additional observations from a re-analysis of the deposited data

How the results depend on the processing

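Of 38 recomputed counts of members, 37 stayed within 1.5 times the reported value. The exception was the count of genes with a larger Nanopore than Illumina share, 1 as reported (Slit2) and 2 with every LAD widened by 20 kb at both borders, when Unc5c joined, since its ends lay within a grid step of Nanopore LADs. All 80 recomputed shares of single genes stayed within the 95% binomial interval of the reported share over bins of 20 kb, a wide tolerance. It treats neighbouring bins as independent, and short genes such as Robo3 could hardly fall outside it, so the count is no measure of stability. Within this tolerance the Nanopore share of Slit2 ranged from 8.50% with LADs narrowed to 20.7% with LADs widened, beside 14.6% as reported. The Nanopore share of Unc5c reached 7.95% with LADs widened. Slit3 had Nanopore shares of 20.2 to 27.0% and Illumina shares of 30.4 to 37.2%. Robo1, Robo2, Dcc and Unc5d were mostly in LADs of both lists under every alternative run, and any overlap added Slit2 and Slit3 by Nanopore and Slit3 by Illumina. With 100 kb beyond each end in place of the end itself, 7 genes by Nanopore and 6 by Illumina had LAD at the start. No paired analysis was possible because the lists hold no values per sample, and for the same reason no replicate could be left out.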
